A study of Mus musculus with 6 samples.

Results

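The genes described here are 40 mouse genes of DNA replication and S phase, chosen by name: subunits of the replicative helicase and the factors that load and activate it (12 genes), the sliding clamp, its loader and the single-strand binding protein (9), DNA polymerases, primase and the enzymes that finish lagging-strand fragments (11), enzymes that supply deoxynucleotides (5), and regulators of entry into S phase (3). All 40 were found on the arrays, on 60 probes, with Gins2 and Rfc1 listed under older symbols and Cdc45 as Cdc45l, and all 40 were well above background on each of the 6 arrays. They are 40 of the 15413 genes tested. The choice used names and roles and no measured value, though it was made with earlier results of these data known.

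The 2 groups were 4T1.2 cells carrying the pMSCV retroviral vector with Irf7 (called IRF7 below, 3 arrays) and 4T1.2 cells carrying the base vector (3 arrays). 4T1.2 is a mouse mammary tumour line of BALB/c origin. Both groups had been infected with virus, selected in puromycin and cloned, and the clones of a group were then mixed. Each group is therefore 1 mixture of clones of a single line, and mixture and transgene cannot be told apart. The design text gives 3 independent experiments, and the question was how basal expression differs between the 2 kinds of cells. Of the 43379 mouse spots on each array, 54.2 to 59.5% were well above background, and the correlation of 2 arrays was 0.995 to 0.997 where they shared a group and 0.978 to 0.980 where they did not. Slide 1 (scan 1) held the 3 IRF7 arrays and base-vector replicate 1, and slide 2 (scan 2) held the other two base-vector arrays. The keratins Krt8 and Krt18 had mean log2 levels of 7.17 and 7.79 in IRF7 cells and of 7.02 and 7.84 in base-vector cells, while no array read Krt19 or Cldn4 well above background. Other epithelial markers differed between the groups: Krt7 was higher in IRF7 cells (6.18-fold), as was Epcam (2.29-fold), Cdh1 was at 0.04 without passing, and Cldn7 was lower, at a level no IRF7 array read well above background. Of 8 leukocyte markers 3 were bright enough to test and none of these passed, and of 8 markers of fibroblasts, endothelium and fat 4 could be tested, with Cdh5 higher (log2 change 1.06) and Pdgfra lower (-1.21) in IRF7 cells. The part of these marker differences in the results below was not tested.

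Replication begins with loading of the Mcm helicase onto origins by Cdc6 and Cdt1 in G1, before cyclin E with its kinase starts S phase. Cdc45 and the GINS complex then turn the loaded helicase into an active fork. The polymerase alpha and primase complex starts each strand, polymerases epsilon and delta extend it with the Pcna clamp placed by replication factor C, RPA covers the exposed single strand, and Fen1 and ligase I join the lagging-strand fragments. Ribonucleotide reductase, thymidylate synthase, thymidine kinase and dUTPase keep the deoxynucleotide pools filled and free of dUTP. Many of these genes carry promoter sites for E2F transcription factors, which are active at the change from G1 to S phase. Irf7 itself is a transcription factor of the interferon response that binds a different element.

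Promoter sequences are shown for members on which the results below turn, to let the E2F letters be read beside the change of the gene. A window from 250 bases before to 50 bases after the gene start was found in the RefSeq table (GRCm38.p6) for 33 of the 40 members. It was searched on both strands for the E2F letters TTTCCCGC, TTTCGCGC, TTTGCCGC and TTTGGCGC, and for the interferon regulatory factor letters GAAANNGAAA. The sequences below are the 170 bases before the start, read 5′ to 3′ on the strand of the gene, with E2F matches in capitals. They lie at chr1:128359706-128359875 on the minus strand (Mcm6), chr8:75109339-75109508 on the plus strand (Mcm5), chr11:98907981-98908150 on the plus strand (Cdc6), chrX:93632156-93632325 on the minus strand (Pola1), chr5:138171884-138172053 on the minus strand (Mcm7), chr12:24708084-24708253 on the plus strand (Rrm2) and chr11:75348384-75348553 on the minus strand (Rpa1).
Mcm6: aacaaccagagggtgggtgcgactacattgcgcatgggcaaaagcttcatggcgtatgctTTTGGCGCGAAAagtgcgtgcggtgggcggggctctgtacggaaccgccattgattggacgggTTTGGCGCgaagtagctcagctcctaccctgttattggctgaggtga
Mcm5: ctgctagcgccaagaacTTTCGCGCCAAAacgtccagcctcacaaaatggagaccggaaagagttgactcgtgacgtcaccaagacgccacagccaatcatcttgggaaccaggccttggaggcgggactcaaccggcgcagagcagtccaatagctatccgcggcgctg
Cdc6: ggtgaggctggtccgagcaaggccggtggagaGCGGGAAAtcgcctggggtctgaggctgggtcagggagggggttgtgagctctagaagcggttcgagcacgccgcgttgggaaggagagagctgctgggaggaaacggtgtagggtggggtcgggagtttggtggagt
Pola1: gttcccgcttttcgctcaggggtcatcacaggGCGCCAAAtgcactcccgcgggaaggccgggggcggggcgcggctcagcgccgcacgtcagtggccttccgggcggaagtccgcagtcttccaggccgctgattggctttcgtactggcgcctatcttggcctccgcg
Mcm7: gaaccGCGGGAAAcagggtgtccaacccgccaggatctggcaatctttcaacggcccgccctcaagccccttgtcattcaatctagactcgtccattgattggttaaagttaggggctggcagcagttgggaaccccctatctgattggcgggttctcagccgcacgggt
Rrm2: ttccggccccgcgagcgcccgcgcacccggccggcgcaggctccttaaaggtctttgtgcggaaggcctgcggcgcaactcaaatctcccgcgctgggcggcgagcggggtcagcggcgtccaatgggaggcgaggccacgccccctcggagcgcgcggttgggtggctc
Rpa1: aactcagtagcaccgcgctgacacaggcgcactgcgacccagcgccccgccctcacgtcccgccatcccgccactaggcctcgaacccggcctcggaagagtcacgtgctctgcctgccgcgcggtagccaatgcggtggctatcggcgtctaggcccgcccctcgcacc
In Mcm6 and Mcm5 the longer capital run holds 2 matches, on opposite strands, that share bases. Mcm6, Mcm5, Cdc6 and Pola1 were higher in IRF7 cells, Mcm7 did not pass the test, and Rrm2 (higher) and Rpa1 (lower) have no match in the searched window. Over the whole window 12 of 33 members held an E2F match (36.4%), against 4.62% of 9970 tested genes with a promoter in the table and 2.6% of all 27025 genes in it. Of those 12, 6 were higher (Mcm3, Mcm5, Mcm6, Cdc6, Pola1 and Pole2), 3 were lower (Pold1, Pold3 and Lig1) and 3 did not pass (Mcm7, Cdt1 and Rfc3), with a median log2 change of 0.14. Of the 21 members without a match 16 were higher and 3 lower (Rpa1, Pold2 and Rrm1), with a median of 0.25. All 3 lower members with a match lie on chromosome 7, where the median of all tested genes was -0.38. Of the members without a match, Rrm1 (lower) and Ccne1 (higher) lie there. The part of chromosome 7 in the 2 medians was not tested. The interferon regulatory factor letters were in the window of 1 member, Pold2 (3.03%), against 3.61% of the tested genes. Mcm7, Pold2, Fen1 and Lig1 have windows at more than 1 start, and a member counted where any of them held a match. Mcm7 held E2F matches only at the start shown. A single start each gave the match of Lig1 and the interferon regulatory factor letters of Pold2. A match is a run of letters and was not tested as a binding site.

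The introduced gene was read first. A level here is log2 of the processed signal minus the 75th percentile of its array. Irf7 had levels of 1.86, 1.89 and 1.84 on the IRF7 arrays and of -2.33, -2.49 and -2.42 on the base-vector arrays, a 19.4-fold difference (log2 change 4.28, SE 0.0485, limma adjusted p = 3.07e-07).

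Most replication genes were modestly higher in IRF7 cells. With limma over all 15413 genes and a Benjamini-Hochberg adjusted p under 0.05, 26 of 40 members rose and 7 fell, and 7 did not pass. With median centring of the arrays 12 were higher and 6 lower, where 6197 of all tested genes passed, 45.5% of these as higher. Without scaling between arrays 28 were higher and 2 lower, where 8141 genes passed, 79.1% of these as higher. With levels as defined above, 61.2% of all tested genes passed, 32.1% as higher and 29% as lower. The share of members that passed (82.5%) is therefore to be read against a high background. Among the members 65% were higher and 17.5% lower. In bulk RNA a larger share of cells in S phase and more RNA of these genes in each such cell cannot be told apart. The median member changed by 0.23 on the log2 scale (1.18-fold), and the median tested gene by 0.03. Bright genes were more often called. Of the 2289 tested genes with a mean level at or above that of the median member, 40.0% were higher and 28.2% lower. Their median was 0.04, and this set does not cover the brightness of members dimmer than the median member.

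The changes were small, and so was the spread between the arrays of a group. The lowest member was Rpa1 at -0.85 and the highest Ccne2 at 1.19, and Ccne2 was the single member that changed by 2-fold or more. Of the 40, 7 had an absolute log2 change of at least 0.5, 17 lay between 0.25 and 0.5, 9 between 0.1 and 0.25, and 7 below 0.1. The SD of a member between the 3 arrays of a group had a median of 0.04. In 35 members the 3 IRF7 arrays all lay on 1 side of the 3 base-vector arrays (all tested genes, 68%), and the groups overlapped in Mcm7, Cdt1, Gins2, Rfc4 and Rpa3. Measured from each gene's mean over the 6 arrays, the median member stood at 0.14, 0.09 and 0.12 on the IRF7 arrays and at -0.09, -0.14 and -0.07 on the base-vector arrays. Within slide 1, where the 3 IRF7 arrays meet base-vector replicate 1, the median member changed by 0.19 and the median tested gene by 0.0021. These values rest on 1 base-vector array. With slide as a fixed block, Pcna, Pola2, Prim1, Prim2 and Pole no longer passed.

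**Figure D1:**
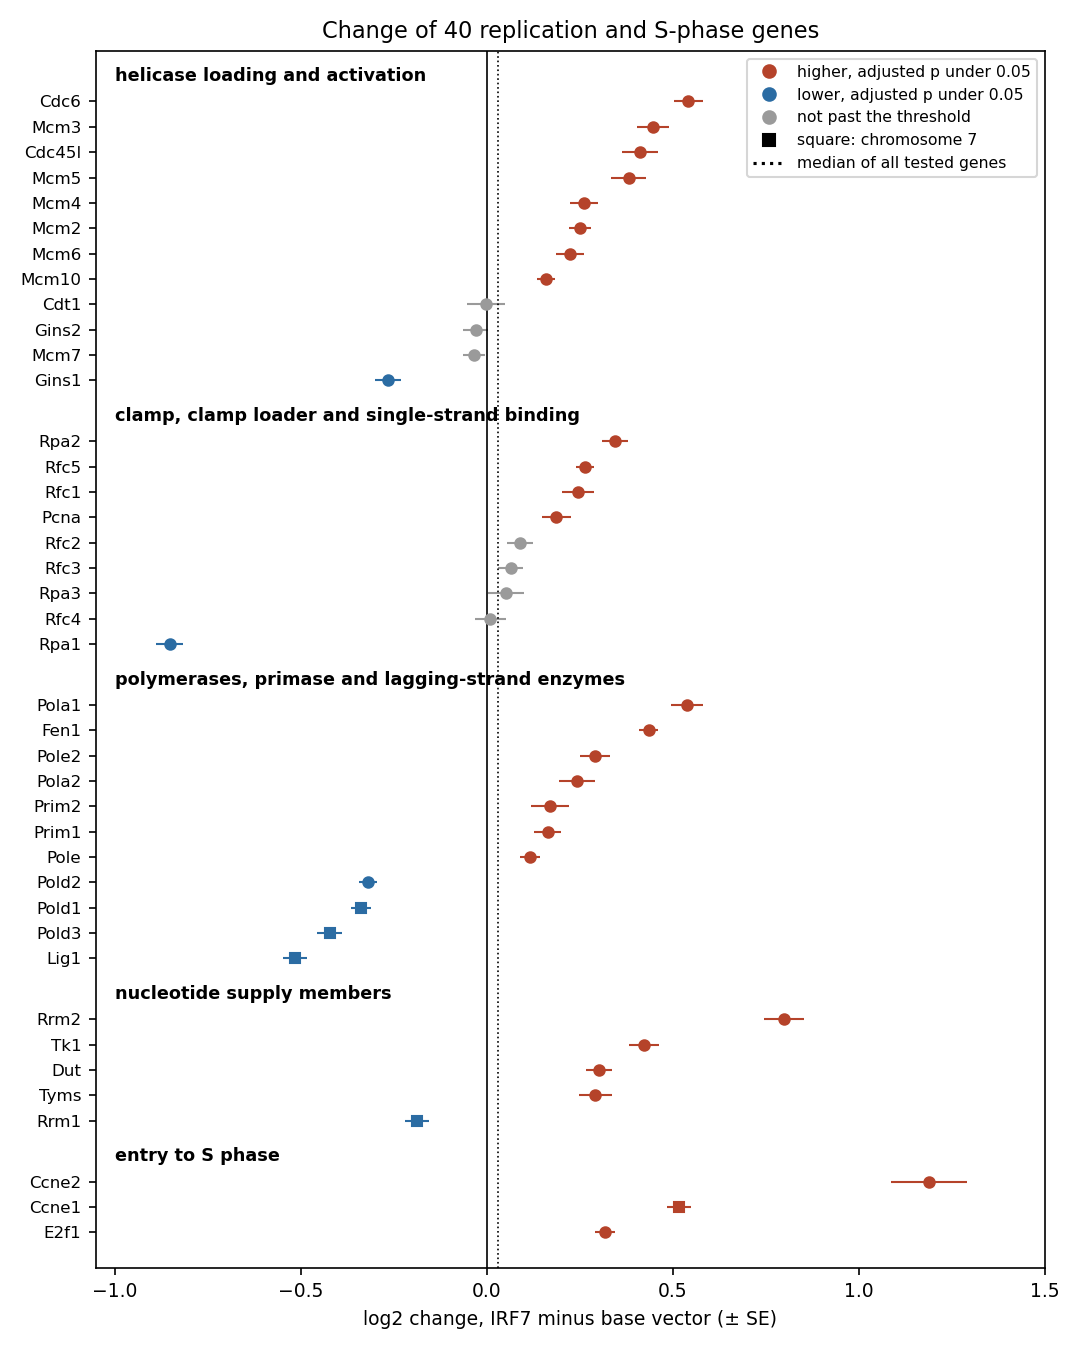
Log2 change (IRF7 minus base vector, x axis, bars ± SE of the limma fit, 3 arrays in each group) of the 40 genes in 5 role groups (y axis). Red points are higher, blue lower and grey not past the threshold, squares are genes on chromosome 7, and the dotted line is the median of all tested genes at 0.03; 26 points are red and 7 blue.

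**Figure D2:**
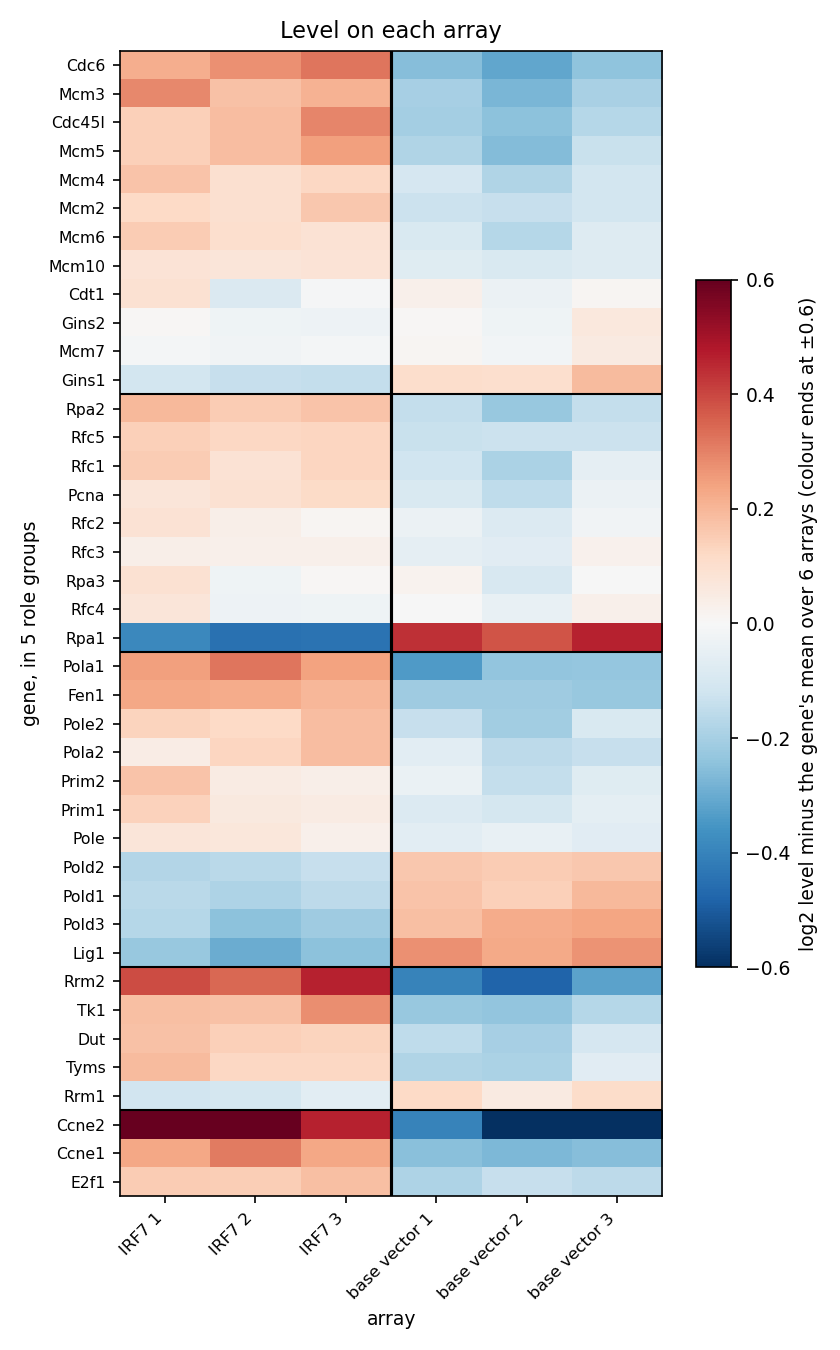
Level of each of the 40 genes (rows, in the same 5 groups) on each of the 6 arrays (columns), as log2 level minus the mean of that gene over the 6 arrays, with red above and blue below the mean and the colour ending at ±0.6. Most rows are red on the 3 IRF7 arrays and blue on the 3 base-vector arrays, and Rpa1, Lig1, Gins1, Rrm1 and the Pold genes run the other way.

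The helicase and its loading factors rose in 8 of 12 cases, with a median log2 change of 0.24. Cdc6, the ATPase that brings the helicase to the origin (probe at chr11:99030298-99030357, mouse build mm7), had levels of 1.26, 1.32 and 1.36 on the IRF7 arrays and of 0.79, 0.73 and 0.80 on the base-vector arrays. The groups did not overlap, and Cdc6 was 1.46-fold higher (log2 change 0.54, SE 0.0387, limma adjusted p = 0.000107). A second Cdc6 probe read 0.29, also past the threshold at the level of probes. Mcm6, the helicase subunit whose probe read the brightest signal of this group (chr1:128211735-128211794), had levels of 5.89, 5.84 and 5.82 in IRF7 cells and of 5.65, 5.57 and 5.66 in base-vector cells. Each IRF7 array read above each base-vector array, and the change was 1.17-fold (0.22, SE 0.0385, adjusted p = 0.00358).

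The log2 changes of the 6 subunits of the Mcm ring lay between -0.03 and 0.45. Mcm3 rose by 0.45 (SE 0.0426), Mcm5 by 0.38 (SE 0.0466), Mcm4 by 0.26 (SE 0.0372) and Mcm2 by 0.25 (SE 0.0299), while Mcm7 was at -0.03 (SE 0.0294, adjusted p = 0.368), with levels of 4.73, 4.72 and 4.73 in IRF7 cells and of 4.76, 4.73 and 4.80 in base-vector cells. The Mcm7 groups overlapped. Which ring subunits pass depends on the scaling: Mcm7 passed as lower under quantile normalization (-0.10, adjusted p = 0.0117), and Mcm2, Mcm4 and Mcm6 did not pass with median centring (adjusted p 0.113, 0.103 and 0.166). Mcm10, which binds the ring and helps to activate it, rose by 0.16 (SE 0.0244). Cdc45l, the helicase cofactor, had levels of 0.86, 0.91 and 1.02 in IRF7 cells and of 0.52, 0.48 and 0.55 in base-vector cells, a rise of 0.41 (SE 0.0484). Its partners in the GINS complex differed: Gins1 fell by 0.26 on the log2 scale (SE 0.0349, adjusted p = 0.00124), with a second probe at -0.33, though it was at -0.07 without scaling between arrays and did not pass (adjusted p = 0.552), and Gins2 was at -0.03 (adjusted p = 0.485). Cdt1, the second loading factor and a target of regulated destruction in S phase, was at -0.00 (SE 0.0516, adjusted p = 0.986).

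Among the clamp, its loader and the single-strand binding protein, 4 of 9 members rose, 1 fell and 4 did not pass, with a median of 0.09. The share that passed, 55.6%, was no higher than the 61.2% of all tested genes. Pcna, the sliding clamp that holds polymerases on DNA and the brightest probe of this group (chr2:131990537-131990674, mm7), had levels of 5.73, 5.75 and 5.78 in IRF7 cells and of 5.57, 5.51 and 5.63 in base-vector cells. The groups did not overlap and the change was 1.14-fold (0.19, SE 0.0389, adjusted p = 0.00773). This probe is on 10 spots of each array, and the SD between those spots was 0.03 to 0.07 on the log2 scale. The Pcna call ended with median centring (adjusted p = 0.272) and with slide as a fixed block (adjusted p = 0.0651), but not with slide as a random block. Of the 5 subunits of replication factor C, Rfc5 (0.26, SE 0.0241) and Rfc1, the large subunit (0.25, SE 0.0438), rose. Rfc2 (0.09, adjusted p = 0.0682), Rfc3 (0.06, adjusted p = 0.151) and Rfc4 (0.01, adjusted p = 0.849) did not pass.

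The subunits of RPA moved in opposite directions. Rpa1, the large DNA-binding subunit (chr11:75382132-75382191, mm7), had levels of 3.28, 3.22 and 3.22 in IRF7 cells and of 4.10, 4.04 and 4.13 in base-vector cells. Rpa1 in IRF7 cells was at 0.554 times its level in base-vector cells (log2 change -0.85, SE 0.0365, adjusted p = 1.76e-05), the largest fall among the members. Rpa2, a smaller subunit phosphorylated in the cell cycle and after DNA damage, had levels of 1.74, 1.70 and 1.72 in IRF7 cells and of 1.40, 1.32 and 1.40 in base-vector cells, a rise of 0.34 (SE 0.0349, adjusted p = 0.000417), and its second probe read 0.25. Rpa3 was at 0.05 (adjusted p = 0.398). Within each array the Rpa2 level minus the Rpa1 level averaged -1.52 ± 0.02 in IRF7 cells and -2.71 ± 0.01 in base-vector cells (SD, n = 3 each), a difference of 1.197. Subtracting a constant from an array cannot change it. In an exact two-sided permutation test p was 0.1, the smallest that 3 against 3 arrays allow. A gene that rose and a gene that fell, both without overlap, always give this value. The test therefore adds nothing to the values, and the same holds for the pairs subtracted below.

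All 11 members among the polymerases, primase and lagging-strand enzymes passed the test, 7 as higher and 4 as lower. Among the members, both subunits of polymerase alpha, both of primase and both of polymerase epsilon rose, and the 3 of polymerase delta fell. Of the rises, those of Prim1 and Pole did not pass under quantile normalization (adjusted p 0.0515 and 0.0812), and with median centring none but Pola1 and Fen1 in this group passed as higher. Pola1, the catalytic subunit of polymerase alpha (chrX:88691502-88691561, mm7), had levels of 1.68, 1.75 and 1.67 in IRF7 cells and of 1.09, 1.198 and 1.201 in base-vector cells, a 1.45-fold difference (0.54, SE 0.0436, adjusted p = 0.000173) with no overlap. Pola2, its regulatory subunit, rose by 0.24 (SE 0.0487), Pole2 by 0.29 (SE 0.0402) and Pole, the catalytic subunit of polymerase epsilon, by 0.12 (SE 0.0268). Prim1, the catalytic primase subunit and the brightest probe of this group (chr10:127531284-127531343, mm7), had levels of 4.18, 4.10 and 4.09 in IRF7 cells and of 3.96, 3.94 and 3.98 in base-vector cells (0.16, SE 0.0359, adjusted p = 0.00954). Prim2 rose by 0.17 (SE 0.0508, adjusted p = 0.0293), a call that ended when any of 4 single arrays was left out (adjusted p 0.052 to 0.0801).

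Polymerase delta, which extends the lagging strand, was lower in each subunit on the member list. Pold1, the catalytic subunit, had levels of 3.48, 3.45 and 3.48 in IRF7 cells and of 3.81, 3.78 and 3.83 in base-vector cells. Pold2 had levels of 2.04, 2.06 and 2.08 in IRF7 cells and of 2.38, 2.37 and 2.38 in base-vector cells. Pold3 had levels of 1.67, 1.60 and 1.63 in IRF7 cells and of 2.02, 2.07 and 2.08 in base-vector cells. In none of these genes did the groups overlap, and the log2 changes were -0.34 (SE 0.0276), -0.32 (SE 0.0253) and -0.42 (SE 0.0329). A second Pold1 probe read -0.39, and a pair of other Pold3 probes, shifted against each other by 1 base, both read -0.20, so the size of the Pold3 change depends on the probe. In values not scaled between arrays the 3 genes stayed below zero, at -0.14, -0.12 and -0.22, and none passed. The small subunit Pold4, from the list of accessory genes, was higher at 0.51 (SE 0.0352), so lower levels were not shared by all subunits of the enzyme. The level of Pola1 minus that of Pold1 was 0.88 greater in IRF7 cells than in base-vector cells (exact permutation p = 0.1).

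The last steps of the lagging strand also split. Fen1, the nuclease that trims flaps, had levels of 1.89, 1.88 and 1.86 in IRF7 cells and of 1.45, 1.45 and 1.43 in base-vector cells (log2 change 0.44, SE 0.0253, adjusted p = 4.99e-05). Lig1, DNA ligase I (chr7:11898267-11898325, mm7), had levels of 3.79, 3.72 and 3.77 in IRF7 cells and of 4.29, 4.25 and 4.29 in base-vector cells (-0.51, SE 0.0325, adjusted p = 6.69e-05). Neither gene had overlapping groups. The Fen1 level minus the Lig1 level was 0.95 greater in IRF7 cells than in base-vector cells (exact permutation p = 0.1).

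Deoxynucleotide enzymes rose in 4 of 5 cases, with a median of 0.30. Rrm2, the small subunit of ribonucleotide reductase that carries its radical cofactor and is made mainly in S phase (chr12:22550253-22550307, mm7), had levels of 3.42, 3.38 and 3.49 in IRF7 cells and of 2.63, 2.55 and 2.71 in base-vector cells. The groups were far apart relative to their spread, and Rrm2 was 1.74-fold higher (0.80, SE 0.0537, adjusted p = 8.54e-05). Rrm1, the large subunit, had levels of 3.74, 3.75 and 3.79 in IRF7 cells and of 3.97, 3.91 and 3.96 in base-vector cells, and fell by 0.19 on the log2 scale (SE 0.0324, adjusted p = 0.00367). Without scaling between arrays Rrm1 was at 0.01, so its direction rests on the scaling. The Rrm2 level minus the Rrm1 level, which no constant subtracted from an array can change, was 0.99 greater in IRF7 cells than in base-vector cells (exact permutation p = 0.1).

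The other enzymes of this group act on pyrimidines. Dut, the dUTPase that keeps uracil out of DNA and the brightest probe of the group (chr2:124998259-124998318, mm7), had levels of 5.12, 5.09 and 5.08 in IRF7 cells and of 4.79, 4.74 and 4.84 in base-vector cells, with no overlap (1.23-fold, 0.30, SE 0.0351, adjusted p = 0.000726). Tk1, the cytosolic thymidine kinase, rose by 0.42 (SE 0.041). Tyms, thymidylate synthase, rose by 0.29 (SE 0.0447) on its brightest probe and read 0.31 on a second, while another, dim probe read 0.57 without passing (adjusted p = 0.145).

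The 3 regulators of S-phase entry all rose, with a median of 0.52. Ccne2, an E-type cyclin that activates Cdk2 (chr4:11130171-11130230, mm7), had levels of -1.27, -1.25 and -1.46 in IRF7 cells and of -2.32, -2.59 and -2.64 in base-vector cells. Its arrays spread more than those of any other member, and the groups still lay apart: the mean was -1.33 ± 0.12 in IRF7 cells and -2.52 ± 0.17 in base-vector cells (SD, n = 3 each), a 2.28-fold difference (1.19, SE 0.103, adjusted p = 0.00022). A second Ccne2 probe read 1.28. Ccne1, the other E-type cyclin and the brightest probe of the group (chr7:34990690-34990713, mm7), had levels of 1.39, 1.46 and 1.39 in IRF7 cells and of 0.90, 0.89 and 0.90 in base-vector cells (1.43-fold, 0.52, SE 0.0325, adjusted p = 6.65e-05), and its second probe read 0.31. E2f1, the transcription factor released when Rb is phosphorylated, had levels of 0.10, 0.10 and 0.13 in IRF7 cells and of -0.24, -0.19 and -0.21 in base-vector cells, a rise of 0.32 (SE 0.0275, adjusted p = 0.000219). A probe of E2f1 on 10 spots of each array read 0.27.

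**Figure D3:**
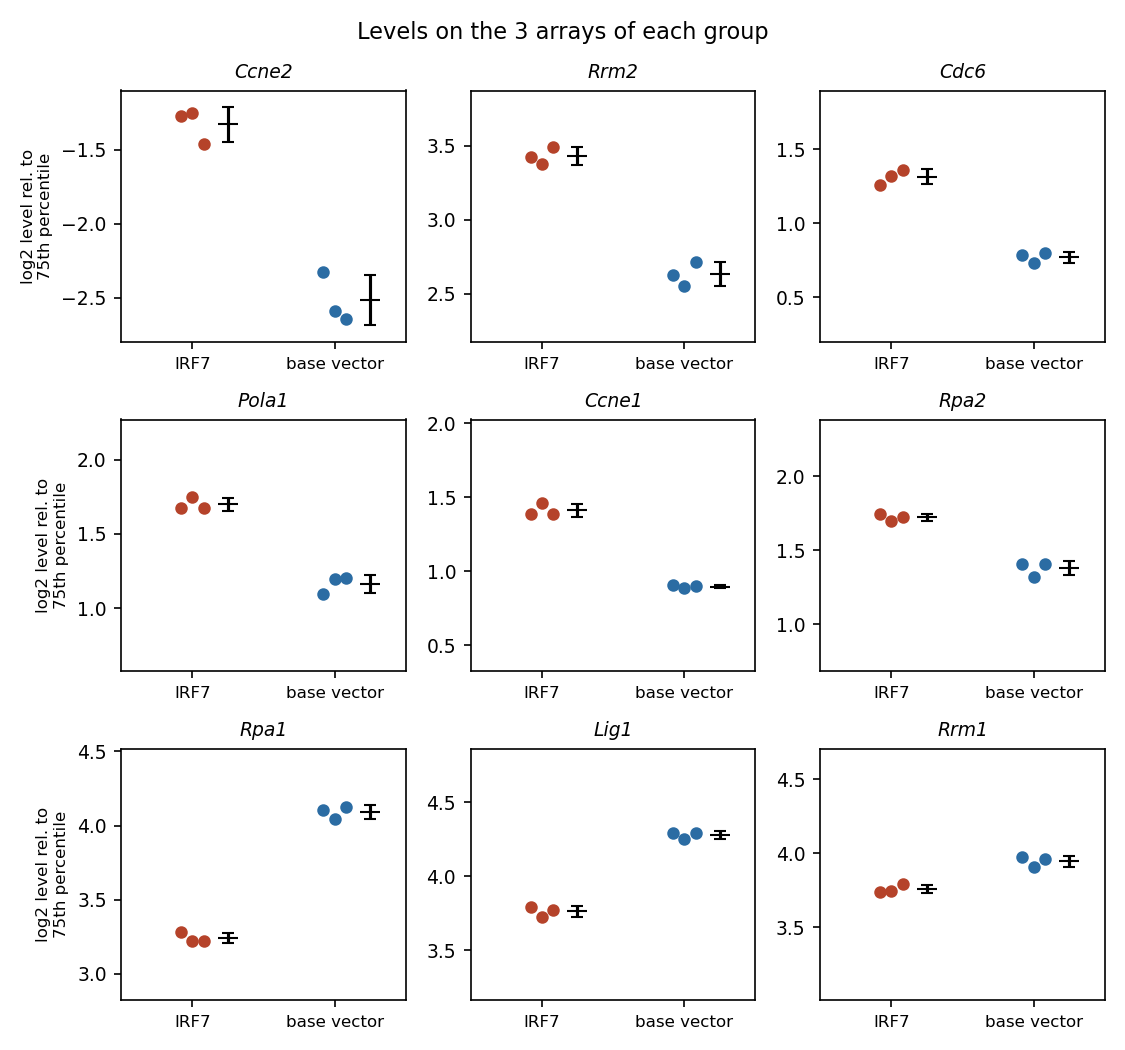
Log2 level relative to the 75th percentile of the array (y axis, each panel centred on its gene, all with the same length of scale) for 9 genes on the 3 IRF7 arrays (left, red) and the 3 base-vector arrays (right, blue), with the mean ± SD beside the points. Ccne2, Rrm2, Cdc6, Pola1, Ccne1 and Rpa2 lie higher in IRF7 cells, and Rpa1, Lig1 and Rrm1 lie lower, without overlap in any panel.

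Per-array values were given to members with an absolute log2 change of at least 0.5 and to the brightest of each group by rule, and to Mcm7, Cdc45l, Rpa2, the Pold genes, Fen1, Rrm1 and E2f1 after their values were seen, as were the 4 pairs whose levels were subtracted. Other probes of the same gene mostly read alike: 13 members had at least 2 probes bright enough to test, and in 11 of them each probe passed in the same direction. The exceptions were Tyms, above, and Rfc2, whose probes read 0.09 and -0.01 without passing. Second probes not given above read 0.35 (Mcm3), 0.47 (Pola2) and 0.25 (Dut), against 0.24 on the brightest Pola2 probe. The Ccne1 probes carry the same coordinates, though their mean levels were 1.15 and -2.98.

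Of the 7 members that fell, 4 lie on chromosome 7, where many genes were lower in IRF7 cells. Of 1136 tested genes placed on chromosome 7 in mm7, 757 were lower and 83 higher, with a median log2 change of -0.38, against a median of 0.05 over 14017 tested genes on other chromosomes. Pold1, Pold3, Lig1 and Rrm1 fell there, and Ccne1, on the same chromosome, rose. The tested genes within 5 Mb on each side of these 5 members had medians of -0.39 (Pold1), -0.25 (Pold3), -0.39 (Lig1), -0.22 (Rrm1) and -0.35 (Ccne1). The other 3 members that fell also lay among genes with a negative median: -0.22 over 173 genes around Rpa1 on chromosome 11, -0.24 over 83 genes around Pold2 on chromosome 11 and -0.08 over 86 genes around Gins1 on chromosome 2. The change of Rpa1 minus the median of its neighbours was -0.64, and for Pold1 that difference was 0.06. Neighbours also had a negative median around 7 members that did not fall. It was -0.35 around Ccne1, -0.21 around Dut and -0.14 around E2f1, and between -0.03 and -0.01 around Pcna, Cdc6, Rrm2 and Mcm3. The part of these regional levels in the members' changes was not tested. Leaving aside chromosome 7, 25 of 35 members were higher (71.4%) and 3 lower (8.57%), with a median of 0.25, where 34.3% of all tested genes on those chromosomes were higher and 26.1% lower.

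**Figure D4:**
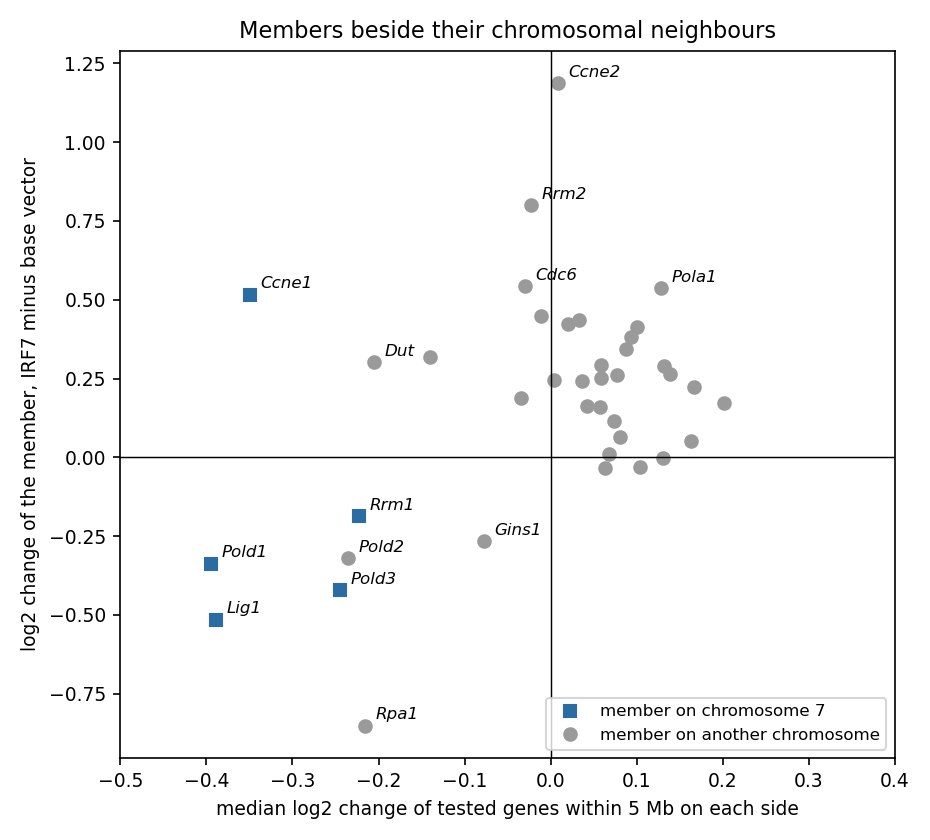
Log2 change of each member placed on a chromosome (39 genes, y axis) against the median log2 change of the tested genes within 5 Mb on each side of it (x axis), both IRF7 minus base vector, with squares for chromosome 7. The 7 members that fell stand at the lower left, among neighbours with medians from -0.39 to -0.08, and Ccne1 stands at the upper left.

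Genes of the same pathways outside the members were described from 5 lists, for which the share of all tested genes higher (32.1%) and lower (29%) is the background. Of 18 origin licensing and firing genes 9 were higher and 3 lower, with a median of 0.14. Gins3, another GINS subunit, was 2.09-fold higher (1.07, SE 0.0322), with Dbf4, the activator of the Cdc7 kinase (0.78), and the origin recognition subunits Orc6 (0.72) and Orc2 (0.62). Within GINS the subunits therefore read from -0.26 (Gins1) to 1.07 (Gins3). Of 25 fork, accessory and chromatin assembly genes 13 were higher and 3 lower (median 0.18), led by Tipin, a partner of Timeless at the fork (0.55), Slbp, which binds histone mRNA (0.54), Pold4 and the histone chaperone Asf1b (0.49). Of 20 further genes of nucleotide supply 14 were higher and 3 lower (median 0.31), among them the folate enzyme Mthfd1 (0.61) and the pyrimidine enzymes Umps (0.58) and Ctps (0.54). These 63 genes together had 36 higher and 9 lower members and a median of 0.22, close to the 0.23 of the replication genes.

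The control of G1 and S phase and the later cell cycle read differently. Of 32 genes of G1/S control 28 were tested, with 17 higher and 7 lower and a median of 0.28. Cdkn1a, the kinase inhibitor p21, was 2.76-fold higher (1.46, SE 0.0403), and Ccnd3 (1.14), Cdk6 (0.96), both of the cyclin D kinases, and Skp2, which targets Cdkn1b for destruction (0.75), were higher as well. Other genes of the same kinases, named after their values were seen, ran the other way or did not pass: Ccnd2 (-0.32) and Cdk4 (-0.17) were lower and Ccnd1 was at -0.06. Of 31 genes of mitosis and the spindle 5 were higher and 13 lower, with a median of -0.08. Median centring left 1 higher and 8 lower, and values without scaling left 5 higher and 2 lower. Of all genes called under these settings, 45.5% and 79.1% were higher. Prc1, a midzone protein (-0.52), Nusap1, a spindle protein (-0.49), and Cdc25c, the phosphatase that activates Cdk1 (-0.48), were lower, and Nuf2, of the kinetochore (0.51), was higher. Prc1 lies on chromosome 7, as do Mki67 (-0.41) and Plk1 (-0.30), also lower. Of the 7 genes of the 5 lists placed there, 6 were lower and 1 higher, where 66.6% of all tested genes on chromosome 7 were lower. On the IRF7 arrays the median mitosis gene stood at -0.05, -0.06 and -0.04 from its mean, and on the base-vector arrays at 0.02, 0.02 and 0.08. Without scaling between arrays the mitosis median was 0.11 and the replication median 0.43, against 0.23 for all tested genes. The sign of the mitosis median therefore rests on the scaling. The order of the 3 medians could not change, because dropping the scaling shifts the change of every gene equally. An E2F match was in the promoter window of 1 of 26 mitosis genes (3.85%), against the 36.4% of the replication genes. In the nucleotide supply list, which had the highest median, 0 of 18 genes held a match. Among the members, 0 of 5 nucleotide supply genes and 0 of 2 regulators of S-phase entry did. The shares were 40% for origin licensing and firing, 28.6% for fork, accessory and chromatin assembly and 34.8% for G1/S control.

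**Figure D5:**
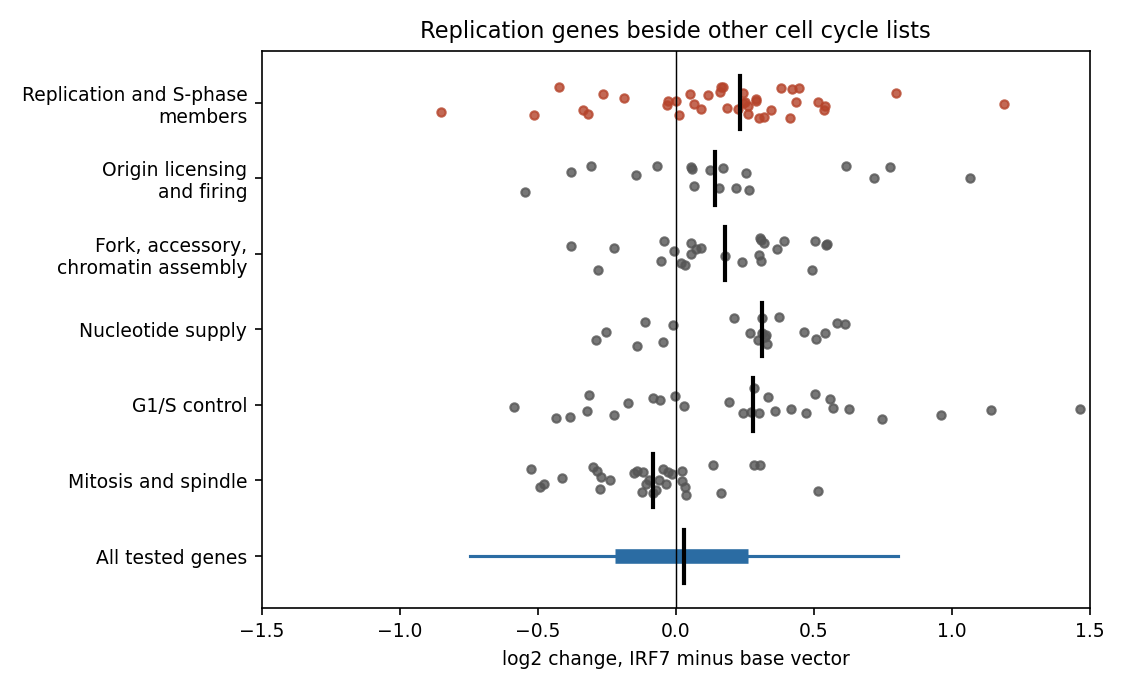
Log2 change (IRF7 minus base vector, x axis) of single genes in the 40 replication and S-phase members and in 5 other lists (rows, points spread vertically for visibility), with the median of each as a black bar. The bottom row shows all tested genes with the middle 50% as a box and the 5th to 95th percentiles as a line; the medians run from -0.08 in the mitosis list to 0.31 in the nucleotide supply list.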

How the data were processed

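RNA from 6 cultures was hybridised to one-colour arrays, and groups and replicate numbers come from the sample titles. Per the submitters' processing notes, spot values come from Agilent Feature Extraction 9.5.3.1. The intensity in the deposited scanner files is linear, with background already subtracted and no scaling from array to array, and probes are placed on mouse build mm7, per the file headers. The deposited value table was identical to that intensity on every array and served as the alternative without scaling.

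The 1639 control spots and 111 to 121 outlier spots per array were left out. Spots of a probe were averaged (41174 probes), and names were updated through the RefSeq gene table (GRCm38.p6; 22951 probes by accession, 6659 by symbol, 3109 by older symbol, 8455 keeping the name in the file). The level tested was log2 of the processed intensity minus the array's 75th percentile. A probe entered the test where 3 or more of the 6 arrays read it well above background (23517 probes), and the brightest such probe represented its gene (15413 genes). limma 3.58.1 in R 4.3.3 (lmFit and eBayes, all 6 arrays, no block, 4 residual and 1.63 prior degrees of freedom) gave log2 changes, with Benjamini-Hochberg adjustment over all tested genes and a threshold of 0.05. The scripts were tested on simulated data. Precision is limited by having 3 arrays in each group, and p-values cover the spread between cultures of a single mixture of clones in each group.

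Members, role groups and lists were chosen with earlier results of these data known, so no set was tested. Named by rule were Irf7, members past the threshold with an absolute log2 change of at least 0.5, the brightest member of each role group and, of each other list, up to 4 members with the largest change. Of the genes this rule chose, 1 is not reported here, though it counts in its list. Cdkn1c, Cdkn2a and Cdkn2b of the G1/S list did not reach that limit on any array, and Atr was not analysed here. Python 3.11.15, pandas 2.3.3, scipy 1.17.1 and matplotlib 3.10.9 made the tables and plots. The alternatives were normexp background correction (offset 50), quantile normalization, median centring, no scaling, the filter on dim probes dropped or tightened, the mean of a gene's probes or its second-brightest probe, robust eBayes with a trend, the slide as a block (fixed or random), the first slide alone, the replicate number as a block, and each array left out in turn.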

Additional observations from a re-analysis of the deposited data

How the results depend on the processing

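Over 61 named genes and 19 alternatives, 1101 of 1159 log2 changes kept their direction and their side of the threshold, 36 lost the call, 7 gained it and 15 changed sign. Of the 33 members called, 14 kept the call under every alternative, 12 as higher and 2, Rpa1 and Lig1, as lower, and 9 more of those that rose lost it under median centring alone. Leaving out each array in turn gave 25 to 26 members higher, 7 lower and 8309 to 9074 genes called in all. Median centring called 6197 genes, 18 members (12 higher) and 52 genes of the other lists (33 higher, 19 lower). Without a filter on dim probes 14538 genes were called, 33.0% of them as higher, against 52.5% with it. Without scaling between arrays 79.1% of calls were higher and the median of all tested genes was 0.23, and 2 members were lower, 1 of them on chromosome 7, with 4 lower genes in the other lists. The median member stood 0.20 above the median of all tested genes with the main scaling, 0.17 with quantile normalization and 0.24 with normexp. Median centring and no scaling also gave 0.20, as they must, because they differ from the main scaling only by a constant on each array. Signs changed without scaling in Mcm7 (0.16), Gins2 (0.17), Cdt1 (0.20) and Rrm1 (0.0100), in Cdt1 also with normexp (0.0012), with slide as a random block (0.0050) and between arrays left out (-0.0467 to 0.0412), in Rfc2 on its second-brightest probe (-0.0081), and in Rfc4 with quantile normalization (-0.0232), with median centring (-0.0249) and between arrays left out (-0.0231 to 0.0285). Except for Rrm1, these genes had not passed in the main comparison, and the cause of these changes was not tested. With slide as a fixed block 21 members were higher and 7 lower, where 7161 of all tested genes passed, 51.1% of these as higher. The median member changed by 0.19 there and with slide 1 alone. Both take the change from base-vector replicate 1, so they are 1 check. With slide as a random block 27 members were higher and 7 lower, where 10026 genes passed, 53.0% of these as higher.

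With the replicate number as a block 9779 genes were called, and 26 members were higher and 7 lower, as without it. Deviations of same-numbered arrays from their group means correlated at 0.04, 0.17 and 0.23, and each array correlated best with its own number, a hint from the data and not from the labels. Dim signal limits 5 further member probes, which were not tested.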

Other observations

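Transcription factors of the E2F family other than E2f1 were part of the G1/S list, and their values, described here after they were seen, ran mostly with those of the replication genes. Of 7 tested, 6 were higher in IRF7 cells under the limma threshold, which 32.1% of all tested genes passed as higher. The rises were 0.57 for E2f3, 0.56 for E2f4, 0.50 for E2f7, 0.42 for E2f2, 0.33 for E2f8, on chromosome 7, and 0.19 for E2f6. The activity of these factors was not tested. E2f5 was at 0.03 (limma adjusted p = 0.416), and at -0.0048 under median centring, where E2f6 did not pass (adjusted p = 0.237) and 5 of 7 were higher. Under quantile normalization, with normexp and without scaling between arrays 6 of 7 were higher and none lower. Of all genes called, 45.5% were higher with median centring, 48.9% with quantile normalization, 48.6% with normexp and 79.1% without scaling. Of the DP proteins that pair with E2F factors, Tfdp1 was higher (0.63) and Tfdp2 lower (-0.59), and both passed under each of these scalings. Cdkn1b, the kinase inhibitor p27, was lower (-0.44, adjusted p = 0.000555), while Cdkn1a, the related inhibitor, was higher by 1.46. Without scaling between arrays Cdkn1b was at -0.24 and did not pass (adjusted p = 0.0763).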
